A study of Mus musculus with 8 samples.

Results

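The genes of glycolysis, lactate handling and the common response to hypoxia were followed in CD31-enriched cells, labelled as endothelial cells, from Lewis lung carcinomas. They are 38 genes, chosen by symbol from knowledge of the pathway, out of 35756 genes in the deposited table. All 38 were found on 1 entry each, and all 38 were among the 14539 genes with enough counts to be tested. They fall into glucose transporters (2 genes), the steps from hexokinase to phosphofructokinase with its regulators (8), the steps from aldolase to pyruvate kinase (9), lactate enzymes and transporters (4), pyruvate dehydrogenase kinases (2) and hypoxia-induced genes outside glycolysis (13).

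Glycolysis splits glucose into pyruvate, which lactate dehydrogenase turns into lactate when mitochondria do not take it up. When oxygen is low, the transcription factor HIF-1 is stabilized, binds a short motif in hypoxia response elements and induces most glycolytic enzymes, the glucose transporter Slc2a1 and genes such as Car9 and Bnip3. Endothelial cells are known to make most of their ATP by glycolysis, and Pfkfb3, which makes the activator of phosphofructokinase, is known as a driver of vessel sprouting.

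The libraries came from Tie2-CreERT2;PPARβ/δ mice, 4 of them given Tamoxifen and 4 given vehicle, with 1 library for each mouse number. Both groups carry PPARβ/δ-flox+/− and Tie2-CreERT2, a Cre recombinase under the Tie2 promoter that Tamoxifen activates and that then switches on extra PPARβ/δ. The labels give the strain as C57BL/6 and list the vehicle group as wild-type, but by the methods the genotype was shared. The methods also say that the Tie2-CreERT2 line had 4 back-crosses onto C57BL/6J. The mice were age- and sex-matched (the age is not given), received Tamoxifen in sunflower oil or the oil alone (vehicle) by daily injection for a week, got LLC1 tumor cells under the skin a week later, and their tumors were digested after some weeks and enriched with CD31 MicroBeads. Tie2-CreERT2 mice with Tamoxifen are not among the libraries, so an effect of Tamoxifen or of active Cre cannot be told apart from that of PPARβ/δ.

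Levels are CPM, read counts scaled to a common library total with TMM factors, and values per library follow the order Tax2604, Tax2689, Tax2382 and Tax2455 for Tamoxifen and oil2453, oil2315, oil2653 and oil2368 for vehicle. Libraries held 19730726 to 24884372 counts. Ppard, which encodes PPARβ/δ, had 122, 70.9, 120.0 and 118 CPM with Tamoxifen, against 74.1, 88.3, 53.4 and 81.9 CPM with vehicle. Its log2 fold change, Tamoxifen over vehicle, of 0.53 had a standard error (SE) of 0.25 and an adjusted p = 0.46 in edgeR. Summed over 16 pan-endothelial markers, Tamoxifen libraries had 3118 to 6089 CPM and vehicle libraries 450.7 to 2179 CPM, with all 16 markers at a higher mean with Tamoxifen and none at 0. Mural cell markers (10 genes) summed to 248.5 to 448 CPM with Tamoxifen and 35.0 to 128 CPM with vehicle, with all 10 at a higher mean with Tamoxifen. Macrophage markers (12 genes) summed to 8117 to 14360 CPM with Tamoxifen and 4965 to 11710 CPM with vehicle, so that macrophage transcripts were plentiful in all 8 libraries labelled as endothelial cells. The vehicle library oil2453 stood apart. Ribosomal protein genes took 20.4% of its counts, against 4.48% to 10.2% in the other 7 libraries. Its hemoglobin genes summed to 6236 CPM, against at most 518 CPM elsewhere, and its 8 epithelial markers summed to 771 CPM, against 129 to 231 CPM elsewhere. Most of this epithelial sum was Krt8 (378 CPM) and Krt18 (353 CPM). Only 3 of the 8 epithelial markers were highest in oil2453, and Cdh1 was lowest there (10.1 CPM). The counts over the members and most comparisons are therefore given with and without oil2453. A value given once is from all 8 libraries and may rest in part on oil2453. The vehicle library oil2653 differed in lymphocyte markers, with B cell markers (6 genes) at a sum of 541 CPM, against at most 87.0 CPM elsewhere, and T and NK cell markers (10 genes) at 237 CPM, against at most 72.5 CPM. In bulk samples, fewer cells of a type and less RNA per cell cannot be told apart.

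**Figure D1:**
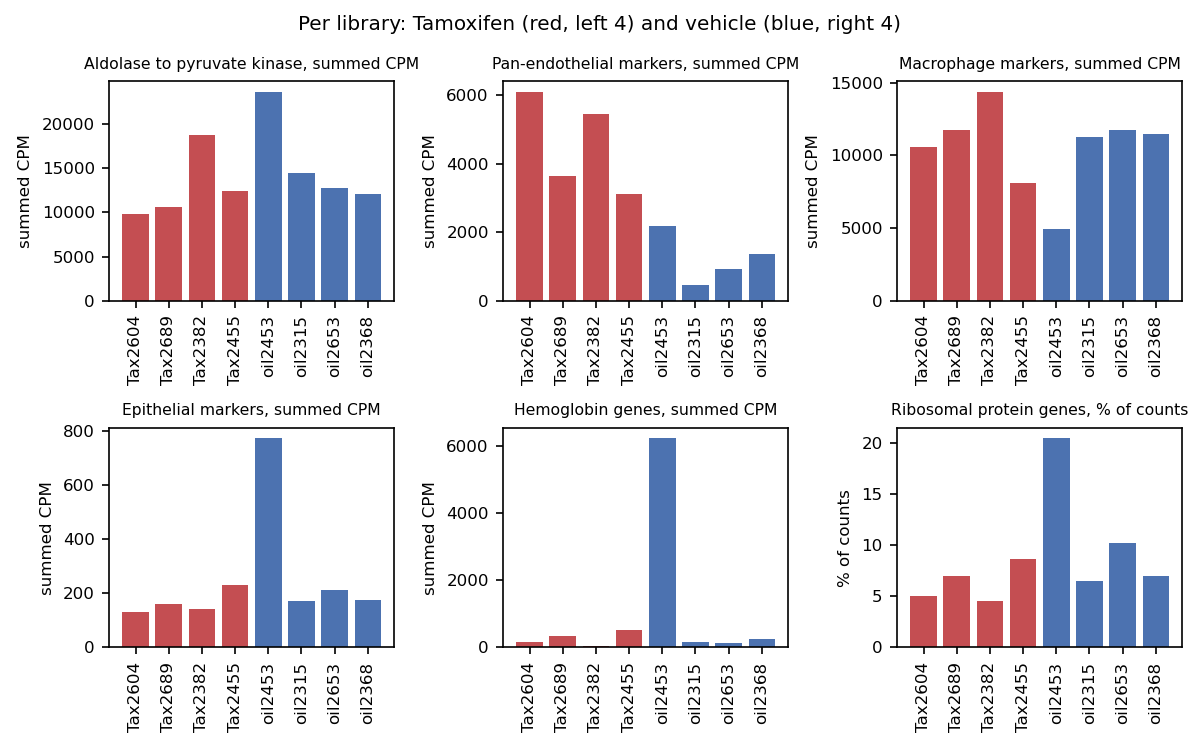
Summed CPM (or percent of counts) in each library for the genes from aldolase to pyruvate kinase, for 4 marker lists and for ribosomal protein genes, with the 4 Tamoxifen libraries in red at left and the 4 vehicle libraries in blue at right. The library oil2453 had the highest sum of glycolytic genes, hemoglobin genes, epithelial markers and ribosomal protein genes, and the lowest sum of macrophage markers. Its epithelial sum was mostly Krt8 and Krt18.

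No member was called. In edgeR's quasi-likelihood test at an adjusted p under 0.05, 0 of 38 members passed, and so did 0 of the 14539 genes tested (0%). The smallest adjusted p of a member was 0.287. Without oil2453, again 0 of 38 members passed, against 256 of 14860 genes (1.72%), and DESeq2 on all libraries called 0 members and 574 genes (3.95%). At an unadjusted p under 0.05, 3 members (Pfkfb3, Slc16a1 and Hk1) passed, 7.89% of 38, against 10.9% of all genes, and without oil2453 3 members (Pfkfb3, Slc16a1 and P4ha2), against 10.4% of all genes.

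Most members had a negative log2 fold change, Tamoxifen over vehicle, in the fit of all libraries. It was above 0 for 12 of 38 members (31.6%), against 47.2% of all genes tested, and the median was -0.14 (range -1.13 to 1.21), against -0.03 for all genes. Without oil2453 it was above 0 for 18 members (47.4%), against 46.6% of all genes, and the median was -0.01, against -0.03. Other libraries moved these values as well. Without Tax2604, 17 members were above 0 with a median of -0.04 (all genes -0.02). In the other direction, 10 were above 0 with a median of -0.34 without Tax2382 (all genes -0.05), 11 with -0.29 without oil2653 (all genes -0.01) and 12 with -0.25 without oil2368 (all genes -0.04). Pfkfb3 was the 1 member whose Tamoxifen libraries all lay above all vehicle libraries, as 5.87% of all genes did, and 0 members had all Tamoxifen libraries below all vehicle libraries, as 2.01% of all genes did. Without oil2453, Pfkfb3 and P4ha2 lay above, 2 members against a background of 8.7%, and 0 members below, against 2.96%. This count moved with other libraries too. Without Tax2382 it was 7 of 38, against 10.4% of all genes, with Aldoa, Pgk1, Pkm, Pdk3, Car9 and Ndrg1 then lower in the other 3 Tamoxifen libraries. It was 4 without Tax2455 (against 15.8% of all genes), 3 without oil2653 (9.56%), 3 without oil2368 (11.2%), 2 without Tax2689 (11.7%), 2 without oil2315 (12.3%) and 1 without Tax2604 (8.77%).

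**Figure D2:**
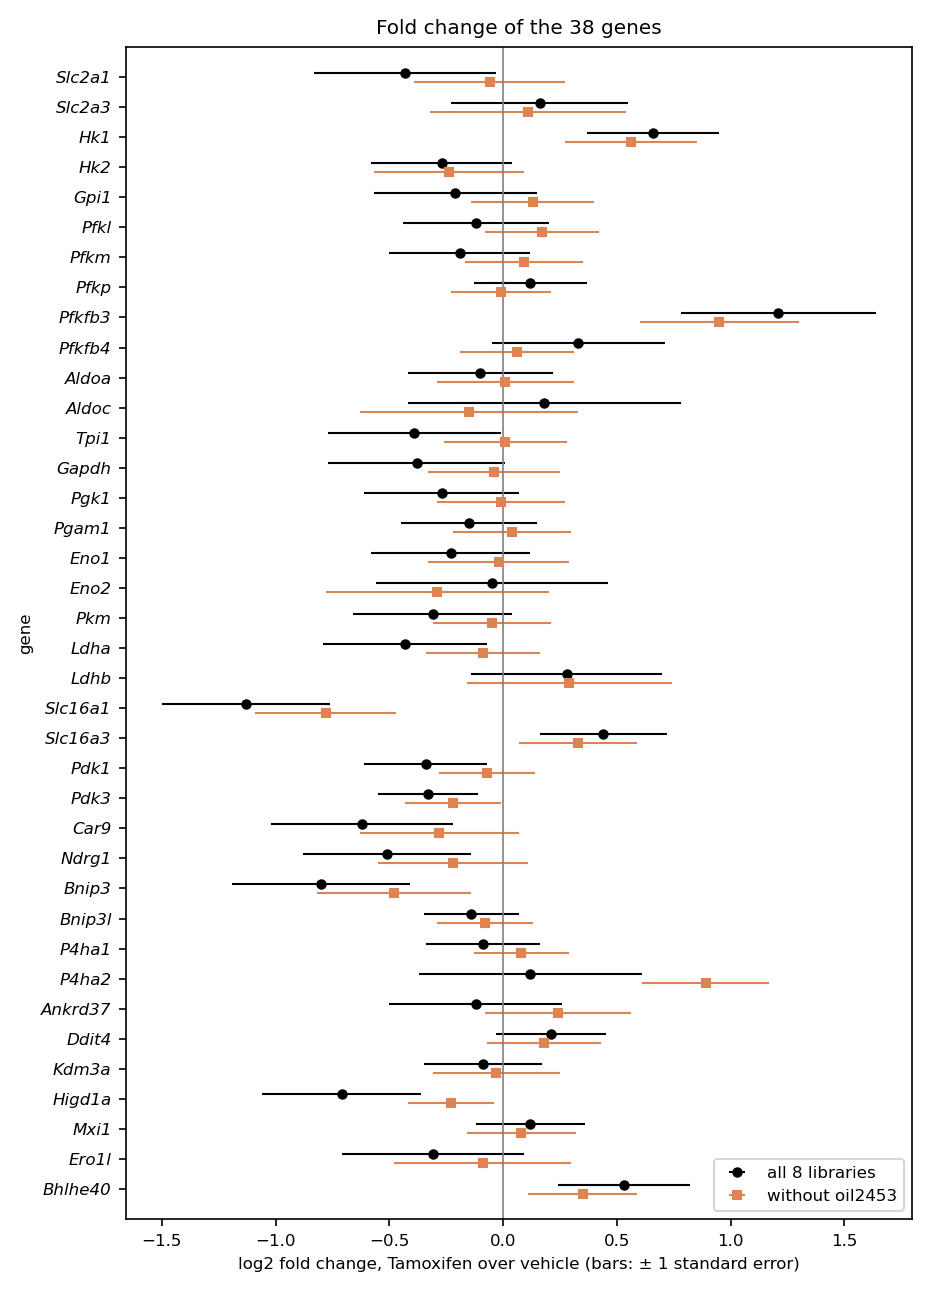
Log2 fold change (Tamoxifen over vehicle) of each of the 38 genes in edgeR's fit, with bars of 1 standard error, for all 8 libraries (black circles) and without oil2453 (orange squares). Pfkfb3 at 1.21 and Slc16a1 at -1.13 lay farthest from 0 with all libraries, and 33 of the 38 values lay nearer to 0 without oil2453.

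Members tended to share the mice in which they were high or low. The library oil2453 had the highest level of 22 of 38 members (57.9%), against 30.2% of all genes tested, and Tax2382 of 8 more (21.1%, against 14.7%). The lowest level was in Tax2604 for 14 members (36.8%, against 15.6%) and in oil2653 for 10 (26.3%, against 11%). Summed over the 38 members, Tamoxifen libraries had 16190, 17560, 28890 and 19780 CPM, against 35660, 22940, 18960 and 19940 CPM in vehicle libraries. Thus the highest sum was in a vehicle library, oil2453, and the next in a Tamoxifen library, Tax2382, and the groups overlapped. The distance between these 2 libraries depended on the scaling. With TMM the size used for oil2453 was 16581312, against 21802602 without it, which raises its CPM. For Tax2382 the size was 23530793, against 24867033. The members other than the hypoxia-induced genes outside glycolysis took 1.47% to 2.46% of the counts of Tamoxifen libraries. In vehicle libraries these members took 1.76% to 2.47%. Their share was almost equal in oil2453 (2.47%) and Tax2382 (2.46%). The glycolytic sum of oil2453 went with its hemoglobin, epithelial and ribosomal protein levels given above, whose part in it was not tested, nor was that of the lymphocyte markers in the low levels of oil2653. In Tax2382 hemoglobin genes summed to 24.1 CPM and epithelial markers to 142.5 CPM, both within the range of the remaining libraries or below it.

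**Figure D3:**
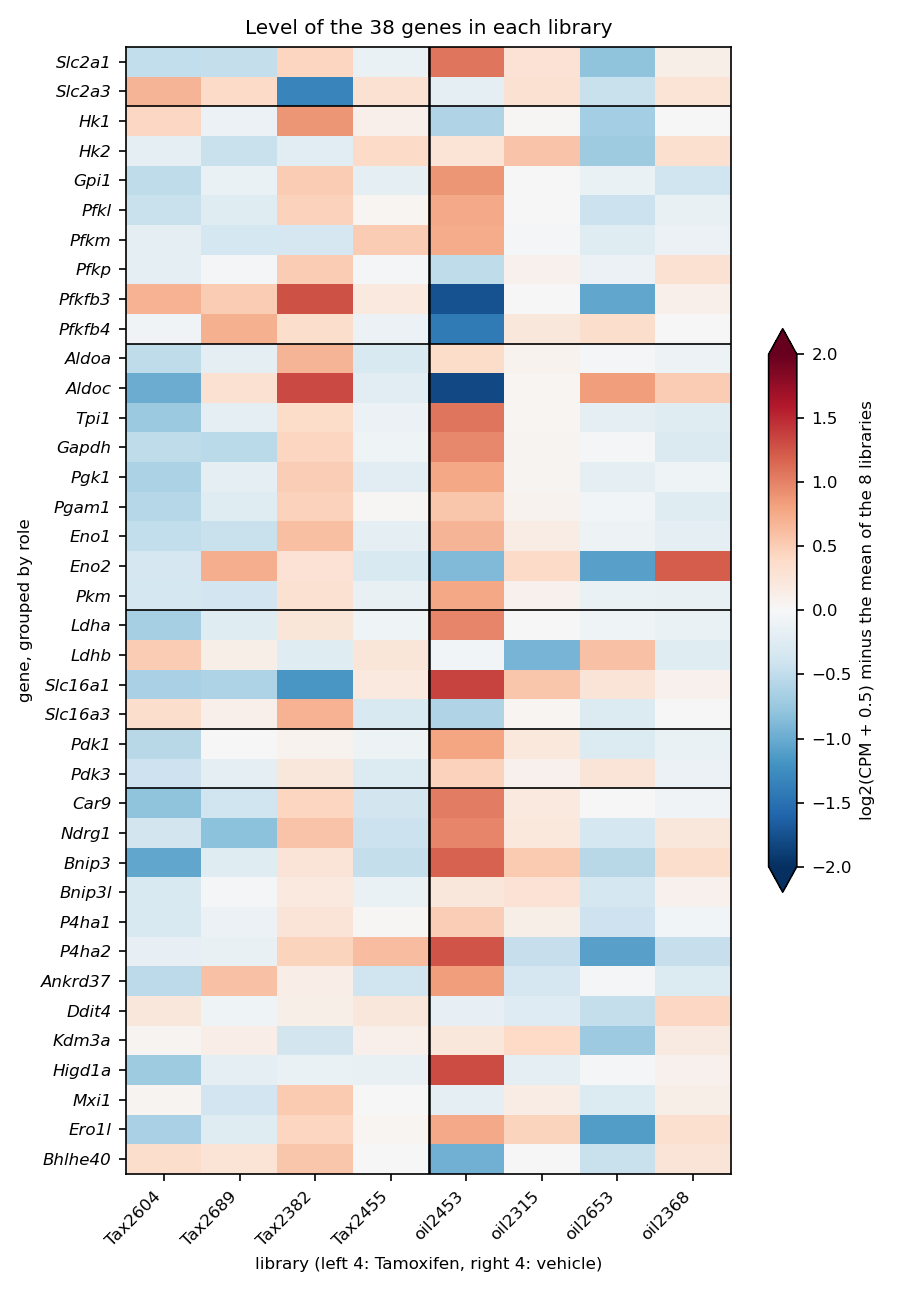
Level of each gene in each library as log2(CPM + 0.5) minus its mean over the 8 libraries, with genes grouped by role (horizontal lines) and the 4 Tamoxifen libraries left of the 4 vehicle libraries (vertical line). Columns Tax2382 and oil2453 are red for most genes from aldolase to lactate dehydrogenase, while Pfkfb3, Pfkfb4 and Aldoc are blue in oil2453.

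Promoter windows show how often the members carry the motif of hypoxia response elements. RefSeq windows (build GRCm38.p6, 250 bases before to 50 after a gene start) were matched for 34 members with 51 windows, Ero1l under its newer symbol Ero1a. Slc2a3, Ndrg1, Bnip3l and Bhlhe40 had no entry. The core motif, ACGTG or GCGTG on either strand, was in 40 of 51 windows (78.4%), against 43.8% of 32851 windows of all genes, and 31 of the 34 members had it in a window (91.2%), against 46.7% of 27025 genes. Gpi1, Tpi1 and Eno2 had none in these windows. A pair of motifs or more was in 54.9% of member windows, against 20.6% of all windows. ACGTG was in 54.9%, against 19.6%, and GCGTG in 56.9%, against 32.4%, with windows that held both counted in each. The palindrome CACGTG, an E-box that holds ACGTG on both strands and so counts as 2 matches, was in 9.8%, against 7.15%. The members were picked from knowledge of the pathway and of hypoxia, so these shares are no test of it. Some windows of the same gene overlap, as for Eno1 and Aldoa, and base composition was not compared. A match is a description of the letters and not of binding.

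Shown here are the windows of Pfkfb3 and Slc16a1, the members with the largest fold changes, and of Ldha, Pgk1 and Bnip3, well-known HIF-1 targets that were highest in oil2453, each 5′ to 3′ on the strand of the gene with the motifs in capitals. In the windows shown, Ldha had 7 matches, Slc16a1 and Bnip3 5 each, Pfkfb3 4 and Pgk1 2. The paired matches of Pgk1 lay at -150 and -131 from the start. Ldha and Pfkfb3 each had a further window, not shown, with fewer matches (2 for Ldha and 1 for Pfkfb3).
Pfkfb3 chr2:11502041-11502340 (-): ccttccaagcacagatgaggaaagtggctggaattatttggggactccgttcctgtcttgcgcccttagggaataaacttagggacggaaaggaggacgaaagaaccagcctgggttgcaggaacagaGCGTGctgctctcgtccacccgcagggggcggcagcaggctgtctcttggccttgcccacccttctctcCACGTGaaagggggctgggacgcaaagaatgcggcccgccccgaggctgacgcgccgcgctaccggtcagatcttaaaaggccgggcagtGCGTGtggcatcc
Slc16a1 chr3:104638414-104638713 (+): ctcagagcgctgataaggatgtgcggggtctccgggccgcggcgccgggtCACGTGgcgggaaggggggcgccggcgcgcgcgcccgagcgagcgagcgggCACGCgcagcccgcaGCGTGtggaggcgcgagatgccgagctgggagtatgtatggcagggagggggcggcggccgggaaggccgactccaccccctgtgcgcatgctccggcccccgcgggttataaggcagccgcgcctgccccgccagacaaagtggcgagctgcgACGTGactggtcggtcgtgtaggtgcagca
Ldha chr7:46845554-46845853 (+): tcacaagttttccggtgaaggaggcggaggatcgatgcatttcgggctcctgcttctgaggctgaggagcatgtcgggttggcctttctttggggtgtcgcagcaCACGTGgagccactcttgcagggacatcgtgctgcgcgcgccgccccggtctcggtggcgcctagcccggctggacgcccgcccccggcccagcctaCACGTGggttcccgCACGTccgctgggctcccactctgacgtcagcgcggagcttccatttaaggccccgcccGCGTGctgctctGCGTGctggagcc
Pgk1 chrX:106186850-106187149 (+): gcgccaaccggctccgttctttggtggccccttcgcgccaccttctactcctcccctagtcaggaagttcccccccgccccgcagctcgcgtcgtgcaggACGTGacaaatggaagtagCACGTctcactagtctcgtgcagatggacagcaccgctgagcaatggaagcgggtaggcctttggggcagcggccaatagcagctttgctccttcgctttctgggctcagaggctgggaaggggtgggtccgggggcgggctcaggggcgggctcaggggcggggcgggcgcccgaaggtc
Bnip3 chr7:138909457-138909756 (-): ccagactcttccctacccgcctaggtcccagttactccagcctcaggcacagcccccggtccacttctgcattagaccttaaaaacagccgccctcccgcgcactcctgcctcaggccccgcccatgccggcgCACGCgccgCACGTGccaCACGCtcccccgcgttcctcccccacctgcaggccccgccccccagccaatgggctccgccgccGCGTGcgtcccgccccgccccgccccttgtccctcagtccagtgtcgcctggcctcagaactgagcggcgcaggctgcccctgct
Of the 22 members that were highest in oil2453, 21 had a window and 19 of these held the motif, Gpi1 and Tpi1 being the exceptions. Of the 16 members that were highest in another library, 13 had a window and 12 of these held it.

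Glucose enters through Slc2a1 (GLUT1), the main transporter of endothelial cells and a HIF-1 target. Slc2a1 had 458, 461, 869 and 585 CPM with Tamoxifen, against 1345, 783, 365 and 697 CPM with vehicle, with a log2 fold change of -0.43 (SE 0.40, adjusted p = 0.694). The groups overlapped, the highest and the lowest library were both vehicle libraries, and without oil2453 the value was -0.06. Slc2a3 (GLUT3), a high-affinity transporter best known from neurons, had 50.9, 41.6, 12.3 and 39.3 CPM with Tamoxifen, against 28.0, 39.3, 23.1 and 38.2 CPM with vehicle, a log2 fold change of 0.16 (SE 0.39, adjusted p = 0.898). Tax2382 held the lowest level of Slc2a3 while it had the second highest of Slc2a1. Per kilobase of the listed gene length, Slc2a1 was at a median of 246 CPM over the 8 libraries and Slc2a3 at 6.2 CPM.

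In the upper steps, from hexokinase to phosphofructokinase, 4 of 8 members had a positive and 4 a negative log2 fold change, with a median of 0.00, and none was called. Pfkfb3, whose fructose-2,6-bisphosphate activates phosphofructokinase, had 320.5, 280.2, 475 and 227 CPM with Tamoxifen, against 58.5, 198, 95.9 and 212 CPM with vehicle. Every Tamoxifen library lay above every vehicle library, but Tax2455 exceeded oil2368 by little. The 4 Tamoxifen libraries averaged 326 ± 107 CPM (SD) and the 4 vehicle libraries 141 ± 75.8 CPM (SD). In edgeR this gave a log2 fold change of 1.21 (SE 0.43) and an adjusted p = 0.337. It was 0.95 without oil2453 (adjusted p = 0.328), and DESeq2 gave an adjusted p = 0.126. The sums of pan-endothelial and of mural markers were higher in the same 4 libraries. Within the vehicle group, oil2453 had the highest pan-endothelial sum (2179 CPM) and the lowest Pfkfb3. The macrophage sum, like Pfkfb3, was highest in Tax2382 (14360 CPM) and lowest in oil2453 (4965 CPM), though its groups overlapped. The part of these cell types in the level of Pfkfb3 was not tested.

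Hk1, the hexokinase of most tissues, had 221, 153, 307 and 178 CPM with Tamoxifen, against 109, 169, 103 and 165 CPM with vehicle. All but Tax2689 lay above the vehicle libraries. The log2 fold change was 0.66 (SE 0.29, adjusted p = 0.446, edgeR), and 0.56 without oil2453 (adjusted p = 0.582). The hypoxia-induced hexokinase Hk2 had a log2 fold change of -0.27, and the Hk2 over Hk1 ratio per length was 0.46 to 1.19 with Tamoxifen and 0.965 to 1.81 with vehicle. This gave a mean log2 difference of -0.87 (exact two-sided permutation test over 70 assignments, p = 0.0571, adjusted over 11 isozyme pairs 0.157). Without oil2453 the difference was -0.72 (exact permutation test, p = 0.114).

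None of the remaining upper members was called. The isomerase Gpi1 had a log2 fold change of -0.21, the phosphofructokinase subunits Pfkl, Pfkm and Pfkp had -0.12, -0.19 and 0.12, and Pfkfb4, a second maker of fructose-2,6-bisphosphate, had 0.33, with adjusted p of 0.753 to 0.903. Without oil2453 Gpi1 was at 0.13, the 3 subunits at 0.17, 0.09 and -0.01, and Pfkfb4 at 0.06. Pfkl was the main phosphofructokinase per length (median 85.3 CPM per kilobase), followed by Pfkp (51.8) and the muscle form Pfkm (5.62). In oil2453 the Pfkp over Pfkl ratio was 0.244, against 0.564 to 0.705 with Tamoxifen and 0.625 to 0.801 in the other vehicle libraries.

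From aldolase to pyruvate kinase, 8 of 9 members had a negative log2 fold change, with a median of -0.23, but the median was -0.02 without oil2453, with 6 of 9 below 0. None was called. The summed level was 9792, 10660, 18720 and 12390 CPM with Tamoxifen, against 23640, 14500, 12820 and 12070 CPM with vehicle, so that the groups overlapped. Tpi1, which interconverts the triose phosphates, had 612, 894.5, 1324 and 943.5 CPM with Tamoxifen, against 2140, 1052, 900.5 and 866 CPM with vehicle. The log2 fold change of Tpi1 was -0.39 (SE 0.38, adjusted p = 0.700) with all libraries and 0.01 without oil2453.

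Gapdh, which oxidizes glyceraldehyde-3-phosphate and which the study used among its reference genes for quantitative PCR, had 2437, 2369, 4625 and 3264 CPM with Tamoxifen, against 6724, 3599, 3377 and 2820 CPM with vehicle. It spanned a 2.84-fold range over the 8 libraries, with oil2453 highest and Tax2689 lowest. The log2 fold change was -0.38 (SE 0.39, adjusted p = 0.719), and -0.04 without oil2453. Pgk1, the first ATP-forming enzyme of the pathway and on the X chromosome, had 784, 1066, 1711 and 1048 CPM with Tamoxifen, against 2080, 1266, 1069 and 1154 CPM with vehicle. The difference for Pgk1 was -0.27 on the log2 scale (SE 0.34, adjusted p = 0.775), and -0.01 without oil2453. Both genes thus had overlapping groups in which oil2453 was highest and Tax2382 next.

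The other enzymes of this stretch were the ubiquitous Aldoa, Pgam1, Eno1 and Pkm with log2 fold changes of -0.10, -0.15, -0.23 and -0.31, and the minor isozymes Aldoc at 0.18 and Eno2 at -0.05. Their adjusted p was 0.744 to 0.979. Without oil2453 the log2 fold changes of the ubiquitous forms were 0.01, 0.04, -0.02 and -0.05, in that order. Aldoc was then at -0.15 and Eno2 at -0.29. Per kilobase, the ubiquitous forms were far above the forms best known from brain, with Aldoa at a median of 783 CPM, Aldoc at 7.49, Eno1 at 880.0 and Eno2 at 9.42. Eno1 was highest in oil2453 and Aldoa in Tax2382, with oil2453 next. The minor forms were low in oil2453. Aldoc had 4.95 CPM and Eno2 13.9 CPM there, the lowest and the next to lowest of 8 libraries. Gene copies with near-identical sequence took few counts, 1.71% of those of Eno1 for Eno1b, 0.216% of those of Pgam1 for Pgam1-ps2 and 0.137% of those of Pgk1 for Pgk1-rs7.

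**Figure D4:**
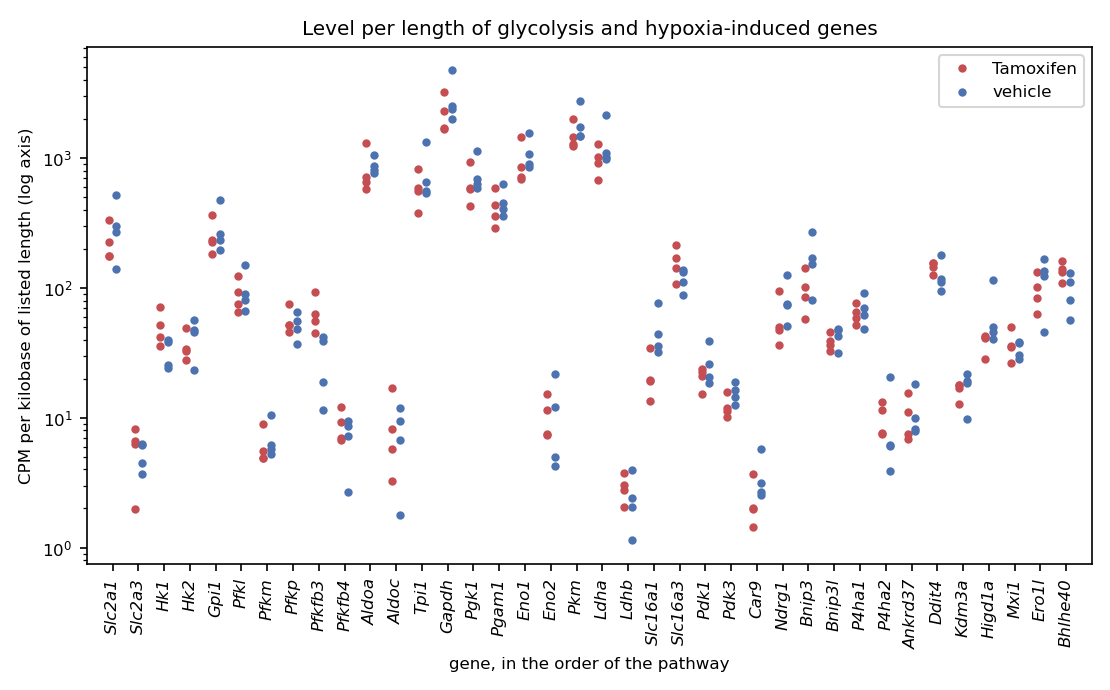
Level of each gene in CPM per kilobase of listed gene length on a log axis, 1 point per library, Tamoxifen (red) left of vehicle (blue). Gapdh, Pkm and Ldha stood highest, with medians of 2340, 1480 and 1020 CPM per kilobase, and Ldhb and Car9 lowest, with 2.58 and 2.62.

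Lactate is formed by Ldha and carried across the membrane by the monocarboxylate transporters Slc16a1 (MCT1) and Slc16a3 (MCT4). Ldha had 1208, 1614, 2264 and 1801 CPM with Tamoxifen, against 3781, 1939, 1817 and 1742 CPM with vehicle, a log2 fold change of -0.43 (SE 0.36, adjusted p = 0.652). Without oil2453 the other 3 vehicle libraries lay inside the range of the Tamoxifen libraries and the value was -0.09. Ldhb, the form that favors lactate oxidation, was at 2.68 to 4.86 CPM with Tamoxifen and 1.48 to 5.14 CPM with vehicle, with a log2 fold change of 0.28 (adjusted p = 0.823).

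Slc16a1 was at 84.5, 86.5, 59.2 and 152 CPM with Tamoxifen, against 339, 196, 158 and 141 CPM with vehicle. The groups overlapped in Tax2455, which exceeded oil2368, and the other Tamoxifen libraries lay below every vehicle library. The 4 Tamoxifen libraries averaged 95.6 ± 39.8 CPM (SD) and the 4 vehicle libraries 209 ± 90.1 CPM (SD). The log2 fold change was -1.13 (SE 0.37, adjusted p = 0.287, edgeR), -0.78 without oil2453 (adjusted p = 0.389), and the adjusted p in DESeq2 was 0.104. Slc16a3, the HIF-1-induced exporter, had 733, 617, 935 and 467 CPM with Tamoxifen, against 382, 592, 478.5 and 577 CPM with vehicle. Here 3 Tamoxifen libraries lay above every vehicle library and Tax2455 did not, with a log2 fold change of 0.44 (SE 0.28, adjusted p = 0.552). The Slc16a3 over Slc16a1 ratio per length was 8.86, 7.28, 16.1 and 3.13 with Tamoxifen, against 1.15, 3.08, 3.08 and 4.18 with vehicle, with Tax2455 alone below the highest vehicle library. The mean log2 difference of that ratio was 1.54 (exact permutation test, p = 0.0571, adjusted over 11 pairs 0.157), and 1.15 without oil2453 (exact permutation test, p = 0.0857, adjusted over 11 pairs 0.314).

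**Figure D5:**
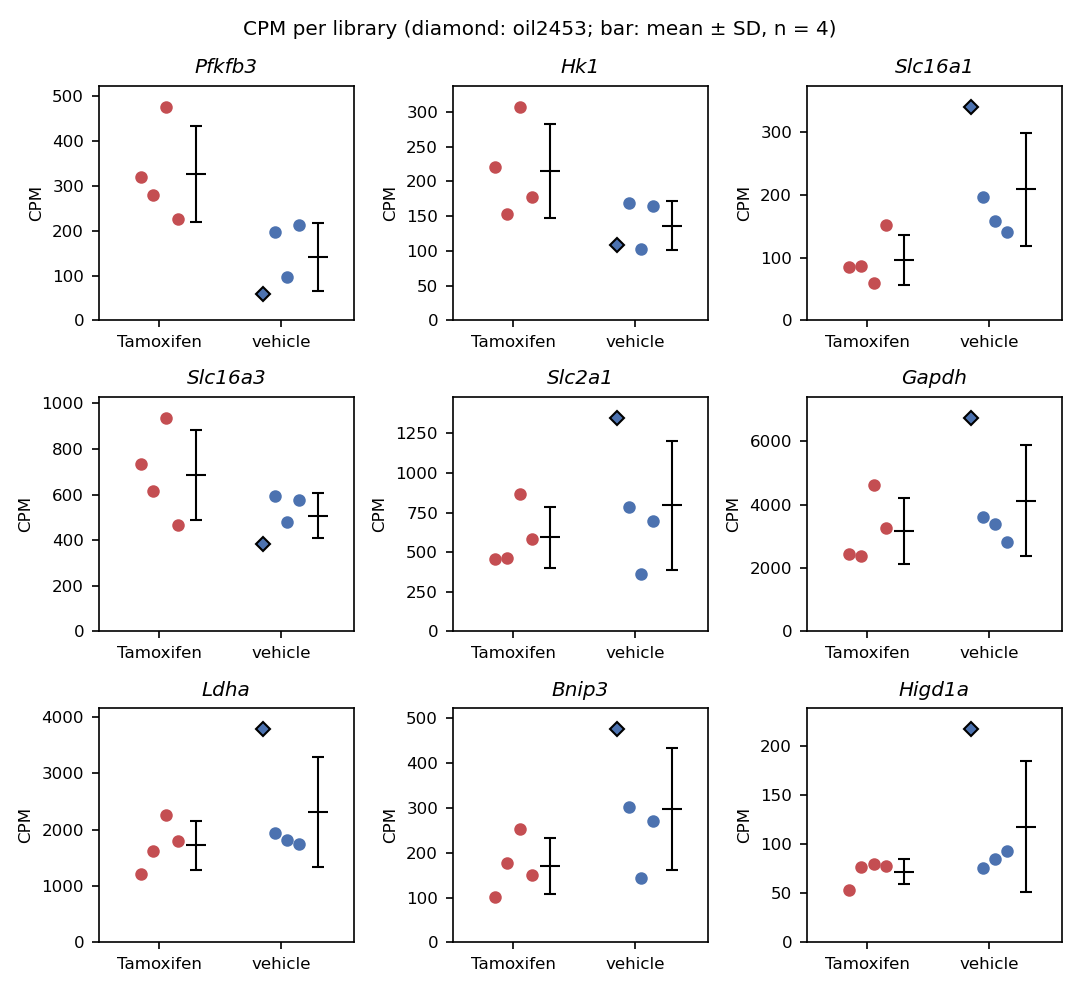
CPM in each library for 9 genes, with Tamoxifen (red) left of vehicle (blue), oil2453 as an outlined diamond, and bars of mean ± SD (n = 4). The groups do not overlap for Pfkfb3 and overlap for the other 8 genes. The library oil2453 is far above the other vehicle libraries for Slc16a1, Slc2a1, Gapdh, Ldha, Bnip3 and Higd1a.

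Pyruvate dehydrogenase kinases keep pyruvate out of the mitochondrial citrate cycle. Pdk1, the HIF-1-induced kinase, had 79.5, 117, 122 and 108 CPM with Tamoxifen, against 202, 134, 96.1 and 106 CPM with vehicle, a log2 fold change of -0.34 (SE 0.27, adjusted p = 0.647). Pdk3 had 21.4, 25.2, 33.6 and 23.7 CPM with Tamoxifen, against 39.6, 30.5, 34.3 and 26.4 CPM with vehicle, a log2 fold change of -0.33 (SE 0.22, adjusted p = 0.566). For both kinases the groups overlapped and oil2453 was highest. Without oil2453 the values were -0.07 for Pdk1 and -0.22 for Pdk3.

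Among the 13 hypoxia-induced genes outside glycolysis, 9 had a negative and 4 a positive log2 fold change, with a median of -0.12, and without oil2453 7 and 6, with a median of -0.03. None was called. Bnip3, a mitophagy receptor, had 102, 177, 252 and 151 CPM with Tamoxifen, against 475, 301, 143 and 269 CPM with vehicle. The 3 highest libraries were vehicle libraries, but oil2653 fell within the Tamoxifen range. The log2 fold change of Bnip3 was -0.80 (SE 0.39, adjusted p = 0.469, edgeR), and -0.48 without oil2453. Its relative Bnip3l was at -0.14, and the Bnip3l over Bnip3 ratio was 0.318 to 0.56 with Tamoxifen and 0.174 to 0.386 with vehicle (mean log2 difference 0.62, exact permutation test, p = 0.0571, adjusted over 11 pairs 0.157). Without oil2453 the difference of that ratio was 0.41 (exact permutation test, p = 0.143).

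Higd1a, a mitochondrial protein induced by hypoxia, had 53.0, 76.5, 79.6 and 78.2 CPM with Tamoxifen, against 217, 75.8, 85.3 and 92.9 CPM with vehicle. The log2 fold change was -0.71 (SE 0.35, adjusted p = 0.472) and rested on oil2453 for much of its size, with -0.23 without it. Car9, the carbonic anhydrase often used as a hypoxia marker, was low, with 2.90, 4.02, 7.52 and 4.11 CPM with Tamoxifen, against 11.6, 6.31, 5.44 and 5.16 CPM with vehicle. Of the Tamoxifen libraries, 3 lay below every vehicle library, and the log2 fold change of Car9 was -0.62 (SE 0.40, adjusted p = 0.551), and -0.28 without oil2453.

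P4ha1 and P4ha2 encode collagen prolyl hydroxylases, and neither was called with or without oil2453. P4ha2 was at 23.1, 23.3, 35.4 and 40.1 CPM with Tamoxifen, against 63.0, 18.7, 11.9 and 18.7 CPM with vehicle. Without oil2453 all Tamoxifen libraries lay above all vehicle libraries, with a log2 fold change of 0.89 (adjusted p = 0.215, edgeR), against 0.12 with all 8 libraries. P4ha1 had a log2 fold change of -0.09, and 0.08 without oil2453. The P4ha2 over P4ha1 ratio differed by 0.46 on the log2 scale (exact permutation test, p = 0.286) with all libraries, and by 0.79 without oil2453. For this last difference the exact permutation p was 0.0286, the smallest it can be there, and 0.314 adjusted over the 11 pairs.

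The other hypoxia-induced members were Ndrg1 at a log2 fold change of -0.51, the oxidoreductase Ero1l at -0.31, Ankrd37 at -0.12, the histone demethylase Kdm3a at -0.09, the MYC antagonist Mxi1 at 0.12, the mTOR inhibitor Ddit4 at 0.21 and the transcriptional repressor Bhlhe40 at 0.53, with adjusted p of 0.504 to 0.926. Without oil2453 they were at -0.22, -0.09, 0.24, -0.03, 0.08, 0.18 and 0.35, in the same order. Bhlhe40 was at 341.5 to 503 CPM with Tamoxifen and 175 to 409 CPM with vehicle, with 3 Tamoxifen libraries above every vehicle library.

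Over the 11 isozyme pairs, no ratio separated all Tamoxifen from all vehicle libraries, and the smallest exact permutation p was 0.0571, reached by Hk2 over Hk1, Pfkfb4 over Pfkfb3, Slc16a3 over Slc16a1 and Bnip3l over Bnip3. With so few assignments, a pair that separated alone could not reach an adjusted p under 0.05. A ratio within a library does not depend on its scaling. Pfkfb4 over Pfkfb3 was at 0.0998 to 0.218 with Tamoxifen and 0.173 to 0.499 with vehicle, a mean log2 difference of -0.90. That difference was -0.95 without oil2453 (exact permutation test, p = 0.114).

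Genes of neighboring pathways were read in the same fit, from lists chosen by pathway. Of 23 further glycolysis isozymes and relatives, 14 could be tested and none was called. Eno3, the muscle enolase, was the lowest-p gene, with 8.30 to 12.1 CPM in Tamoxifen and 12.4 to 30.0 CPM in vehicle libraries. Its log2 fold change was -0.94 (adjusted p = 0.281), and its groups lay apart by little. The gene listed under the symbol Pgm1 followed at 0.48 (adjusted p = 0.394). Neither had overlapping groups. Of all genes, 5.87% lay higher with Tamoxifen without overlap and 2.01% lower. Of the pyruvate dehydrogenase complex and its partners, 10 of 10 were tested and none was called, with Dld at -0.48 (adjusted p = 0.377) and Mpc2 at -0.59 (adjusted p = 0.462). The groups of Dld did not overlap either, with Tamoxifen lower. None of 7 pentose phosphate genes was called, with Rpia at -0.54 (adjusted p = 0.435) and Pgls at -1.02 (adjusted p = 0.481, and -0.15 without oil2453), nor was any of the 3 gluconeogenic genes tested of 7, with Pcx at 0.84 (adjusted p = 0.44) and G6pc3 at -0.07 (adjusted p = 0.932).

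Of 30 further hypoxia-induced genes, 29 were tested and 0 were called by edgeR with all libraries, with 4 at an unadjusted p under 0.05, against 10.9% of all genes. Of the 29, 2 were called higher both by DESeq2, which called 3.95% of all genes in either direction, and by edgeR without oil2453, which called 1.72%. Both were stanniocalcins, secreted glycoproteins. Stc1 had 398, 271, 259 and 154 CPM with Tamoxifen, against 46.5, 28.5, 38.04 and 88.6 CPM with vehicle, a log2 fold change of 2.42 (SE 0.42, adjusted p = 0.0732), and 2.39 without oil2453 (adjusted p = 0.0442, edgeR). Stc2 had 13.4, 11.2, 9.48 and 9.13 CPM with Tamoxifen, against 6.39, 0.835, 1.29 and 3.65 CPM with vehicle, a log2 fold change of 1.83 (adjusted p = 0.263), and 2.49 without oil2453 (adjusted p = 0.0492, edgeR). For both genes every Tamoxifen library lay above every vehicle library, as for 5.87% of all genes. The median over the 29 genes was -0.09, and 13 of them had a positive value. All 16 pan-endothelial and all 10 mural markers were also at a higher mean with Tamoxifen, and their part in the levels of Stc1 and Stc2 was not tested.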

How the data were processed

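RNA of CD31-enriched tumor cells from 4 Tamoxifen and 4 vehicle mice was sequenced. The authors filtered the reads for adapters, undetermined bases and quality and counted them per gene with HTSeq 0.6.1. TopHat2 2.0.12, Bowtie2 2.2.3 and the build mm8 stand in the submitters' processing notes. Gene positions in the table overlap GENCODE M21 (GRCm38) for all 38 members, with the same bounds for 24. The sources used here do not say whether counting used strand or how reads with several matches were treated. The deposited counts are whole numbers, and the FPKM values were computed by the authors from count and gene length. Their own test columns (group means, fold changes and p-values) were not used.

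The counts were fitted in R 4.3.3 with edgeR 4.0.16 (quasi-likelihood test, TMM, a minimum count of 10, Tamoxifen against vehicle as the one term, Benjamini-Hochberg adjustment over all 14539 genes, called at an adjusted p under 0.05). The SE is the absolute log2 fold change divided by the square root of F. Isozyme ratios were tested by exact two-sided permutation of the libraries. The fits were tested on simulated data. Mouse numbers are the one sign that libraries are separate samples, and p-values measure the spread between them.

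The members and lists were chosen with earlier results of these data known. Per-library values are given for Slc2a1, Pfkfb3, Gapdh, Ldha, Pgk1, Car9 and the 2 members of each role with the smallest p, every member is named, and so are up to 2 genes of each other list. P4ha2 was given per library after its values were seen. Alternatives were median-of-ratios size factors, library size alone, no filter on low counts, 10 counts in each library, DESeq2 1.42.0, limma-voom (limma 3.58.1), limma on log2(FPKM + 1) or log2(FPKM + 0.1) where 4 libraries exceeded an FPKM of 1, ratios of FPKM, and leaving out each library. DESeq2 without oil2453 was added after seeing the data.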

Additional observations from a re-analysis of the deposited data

Results flagged for a closer look

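In 7 of the 76 sets of 4 CPM values (38 genes in each of the 2 groups) 1 library stood apart from the other 3, with a gap to its neighbor, as a share of the range, above Dixon's 95% critical value. Chance gives about 1 in 20 such sets. In 5 of the 7 the library was oil2453, which was far above the other vehicle libraries for Pfkm (30.5 CPM), Tpi1 (2140 CPM), Ldha (3780 CPM), P4ha2 (63.0 CPM) and Higd1a (217 CPM). The other 2 were Pfkm in Tax2455, high at 25.9 CPM among Tamoxifen libraries, and Higd1a in Tax2604, low at 53.0 CPM.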

How the results depend on the processing

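No member was called under any of the 16 alternatives run on the 38 members, nor by DESeq2 without oil2453. Most of the 16 called no gene at all among those tested, so this is not particular to the members. Of 608 values of single members under alternatives, 560 kept their direction and side of the threshold and 48 turned the sign, in 15 members (with all libraries between -0.39 for Tpi1 and 0.18 for Aldoc), while 23 members never turned. With library size alone, Pfkl was at 0.02, Aldoa 0.00, Eno2 0.00, P4ha1 0.03, Ankrd37 0.05 and Kdm3a 0.03, and 18 of 38 members were above 0. Limma-voom put Eno2 at 0.19. With log2(FPKM + 1), Pfkl was at 0.02, Eno2 0.28, P4ha1 0.04, Ankrd37 0.00 and Kdm3a 0.06, and with log2(FPKM + 0.1) 0.02, 0.31, 0.04, 0.00 and 0.07, where the median of all genes was 0.09, against -0.03. Leaving out each library gave ranges of -0.03 to 0.45 for Slc2a3, -0.32 to 0.17 for Pfkl, -0.42 to 0.07 for Aldoa, -0.36 to 0.04 for Pgam1, -0.31 to 0.52 for Eno2, -0.23 to 0.08 for P4ha1, -0.40 to 0.24 for Ankrd37, -0.05 to 0.24 for Pfkp, -0.39 to 0.49 for Aldoc, -0.29 to 0.02 for Kdm3a, -0.06 to 0.24 for Mxi1, -0.14 to 0.89 for P4ha2, -0.44 to 0.13 for Gpi1, -0.42 to 0.09 for Pfkm and -0.60 to 0.01 for Tpi1. For log2 ratios it gave -0.01 to 1.01 for Slc2a3/Slc2a1, -0.16 to 0.41 for Pfkp/Pfkl, -0.30 to 0.75 for Aldoc/Aldoa and -0.16 to 0.13 for Pdk3/Pdk1. The number of members without overlap was 1 to 7, against 8.77% to 15.8% of all genes, members above 0 were 10 to 18 and their median -0.34 to -0.01. Calls over all genes were 177 of 14539 with library size alone, 68 of 23453 without a filter and 317 and 221 of 12350 on FPKM. They were 31 of 14790 without oil2368 and 796 of 14860 with DESeq2 without oil2453. The causes were not tested. No paired analysis was possible because the groups share no replicate numbers. Low members such as Car9 and Ldhb rest on few counts, and 4 libraries a group limit what can be called.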
